A study of Mus musculus with 72 samples.

Results

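RNA was compared between a methionine- and choline-deficient (MCD) diet and a control diet in the suprachiasmatic nucleus (SCN) of mice late in the subjective day and at its end, at circadian times (CT) 8 and 12. The comparison used the 12 libraries labelled SCN, CT8 or CT12, of 72 in the series and 36 from SCN: 6 on MCD and 6 on control, 3 per diet and time. The 2 times were pooled, with time as a term of the fit. The libraries were assigned to the comparison by their labels for tissue, time and diet.

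All groups were C57BL/6 mice, aged 8 to 12 weeks per the labels' protocols, that ate either MCD chow or isocaloric control chow freely for 11 days and were housed singly. They lived for 10 days in a light-dark cycle and then in constant darkness on the last day, when they were killed in dim red light. The SCN was cut by laser from 23 toluidine-blue-stained coronal sections of 25 µm, so each library holds neurons, glia and vessels of the cut area. Each group held 2 males and 1 female, 1 mouse per library, although the protocol text names males only. The 2 control males of CT08 carry the same column name and are called a and b, while the other libraries carry numbers and the female of each group is number 3. The female and the number 3 therefore cannot be told apart, and the sex term of the fit covers both.

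The SCN is the hypothalamic pacemaker: in its neurons CLOCK and ARNTL drive the Per, Cry, Nr1d and Dbp genes, whose products feed back on the loop, and neuropeptides such as VIP and AVP couple the cells. Methionine feeds the synthesis of S-adenosylmethionine, the methyl donor for DNA, RNA, histones and phosphatidylcholine, and Mat2a encodes the enzyme that makes it outside the liver. Astrocytes take up glutamate and turn it into glutamine.

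Xist lay at 1113 to 3767 CPM (counts divided by the library total in M) in the 4 female libraries. In the 8 male libraries it lay at no more than 1.64 CPM. CPM values of all other genes also use TMM factors. Depth ran from 46.4 M to 79.8 M gene counts. The highest Xist level, the lowest total and the highest share of counts in the 10 most counted genes (12.8%, against 7.77% to 11.3% elsewhere) all belonged to the library MCD CT12 3. SCN markers were abundant: the 20 SCN neuropeptides and their receptors had a mean sum of 3280 CPM in control and 3292 CPM in MCD libraries.

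Diet changed 4 of 15756 tested genes (0.0254%), all higher on MCD, at a Benjamini-Hochberg adjusted p under 0.05 from edgeR's quasi-likelihood fit. They were Glul, Sult1a1, Fbln5 and Fam107a. Glul encodes glutamine synthetase, the astrocyte enzyme that converts glutamate to glutamine. Sult1a1 encodes a sulfotransferase for phenolic compounds, Fbln5 an extracellular-matrix protein of elastic fibres, and Fam107a an actin-associated protein. Without adjustment 888 genes (5.64%) had p under 0.05, 489 higher (3.1%) and 399 lower (2.53%).

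The 250 bases before the RefSeq start of each called gene (build GRCm38.p6, whereas the submitters' processing notes name GRCm39) are printed because these 4 genes rose together. Capitals mark AGAACA, or TGTTCT on the other strand, the half-site of the glucocorticoid receptor element; Sult1a1 itself belongs to the glucocorticoid-response list described later. Glul stands at chr1:153899679-153899928 on the plus strand, Sult1a1 at chr7:126676419-126676668, Fbln5 at chr12:101819120-101819369 (the outer of 2 starts) and Fam107a at chr14:8309780-8310029 (an inner start, the second of 3), these 3 on the minus strand.
Glul: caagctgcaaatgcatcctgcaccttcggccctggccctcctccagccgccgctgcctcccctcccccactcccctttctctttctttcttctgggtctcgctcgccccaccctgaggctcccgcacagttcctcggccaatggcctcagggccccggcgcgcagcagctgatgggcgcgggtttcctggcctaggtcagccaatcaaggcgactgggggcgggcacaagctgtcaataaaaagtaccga
Sult1a1: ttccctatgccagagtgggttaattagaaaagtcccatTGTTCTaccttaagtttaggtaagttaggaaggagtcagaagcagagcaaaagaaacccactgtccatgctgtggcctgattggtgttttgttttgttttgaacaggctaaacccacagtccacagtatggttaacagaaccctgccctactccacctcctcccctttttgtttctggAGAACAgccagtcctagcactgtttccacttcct
Fbln5: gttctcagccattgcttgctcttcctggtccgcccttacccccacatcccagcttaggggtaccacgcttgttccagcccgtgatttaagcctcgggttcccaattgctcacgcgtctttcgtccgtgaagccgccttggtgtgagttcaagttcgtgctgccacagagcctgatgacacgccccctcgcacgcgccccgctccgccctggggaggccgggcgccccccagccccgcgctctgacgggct
Fam107a: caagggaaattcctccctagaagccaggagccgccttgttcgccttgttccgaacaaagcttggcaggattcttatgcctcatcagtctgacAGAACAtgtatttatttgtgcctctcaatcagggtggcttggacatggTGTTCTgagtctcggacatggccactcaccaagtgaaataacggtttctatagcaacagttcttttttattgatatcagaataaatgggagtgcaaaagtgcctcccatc
The Sult1a1 window held 2 half-sites, starting 212 and 34 bases before the start, and the printed Fam107a window held 2, at 158 and 110 bases. The window of the other inner start (chr14:8309778-8310027) overlaps the printed one almost wholly and held the same 2. The windows of Glul, of both Fbln5 starts and of the outer Fam107a start held none. Searched on both strands, the half-site stood in 16.1% of 32851 such windows of all genes. The whole palindromic element, the half-site facing its reverse complement across 3 bases, stood in 0.00913% of windows and in none of these genes. A match here is a run of letters in the window and no measure of binding.

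Glul (chr1:153899944-153909723 in GENCODE M21, GRCm38; protein-coding) lay at 1202, 860 and 987 CPM in the CT08 controls (female, a, b) and at 1266, 1218 and 1472 CPM in the CT12 controls. The MCD libraries lay at 1177, 1301 and 1554 CPM at CT08 and at 1571, 1647 and 2105 CPM at CT12. All 6 MCD libraries lay above the control mean of their time; the diets overlapped at CT08 and were apart at CT12. Over the 6 libraries of a diet the mean was 1167 ± 216 CPM on control and 1559 ± 322 CPM on MCD (SD, n = 6 each), a fitted rise of 0.41 ± 0.06 log2 (SE; edgeR adjusted p = 0.0299). The table also lists Glns-ps1, a processed copy of Glul that can share its reads, at 0.56 ± 0.10 log2 (not called, edgeR adjusted p = 0.121).

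Sult1a1 (chr7:126672865-126676432, minus strand; Sgf29 overlaps it on the other strand) had the largest fold of the 4, from 6.50 ± 3.36 CPM on control to 12.6 ± 3.47 CPM on MCD (SD, n = 6 each). The control libraries lay at 6.96, 3.63 and 3.44 CPM at CT08 and at 7.73, 4.88 and 12.4 CPM at CT12. The MCD libraries lay at 7.78, 11.3 and 12.0 CPM and at 14.3, 12.2 and 18.3 CPM. The diets were apart at CT08, while at CT12 the control female lay above the lowest MCD library. The fitted rise was 1.05 ± 0.15 log2 (edgeR adjusted p = 0.0299).

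Fbln5 (chr12:101746565-101819055, minus strand) rose from 56.5 ± 13.3 to 84.2 ± 18.9 CPM, or 0.58 ± 0.09 log2 (edgeR adjusted p = 0.0385, n = 6 each). Its control libraries ran from 42.7 to 73.5 CPM and its MCD libraries from 61.7 to 106.0 CPM, so the 2 ranges overlapped. Fam107a (chr14:8296274-8318023, minus strand) rose from 268 ± 59.4 to 367 ± 85.4 CPM, or 0.45 ± 0.07 log2 (edgeR adjusted p = 0.0451). Its control libraries ran from 177 to 356 CPM and its MCD libraries from 292 to 527 CPM. For both genes, 6 of 6 MCD libraries lay above the control mean of their time.

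**Figure D1:**
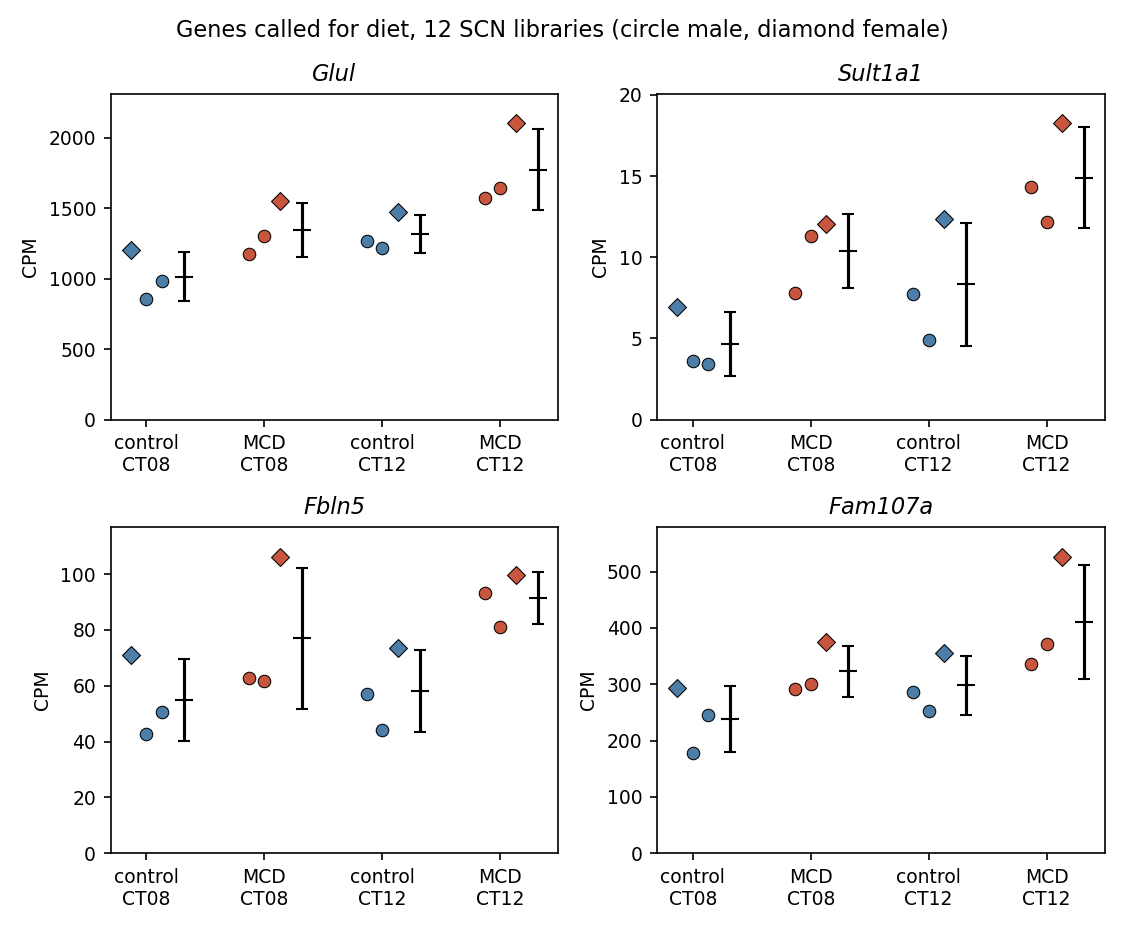
CPM of Glul, Sult1a1, Fbln5 and Fam107a in each of the 12 libraries, by diet and time (circles, males; diamonds, females; bars, mean ± SD of 3). MCD groups lie above the control group of the same time, as for Glul (1167 ± 216 CPM on control and 1559 ± 322 CPM on MCD over both times), and the diamond is the highest point of every group.

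In all 4 groups and for all 4 called genes, the female library was the highest of its 3. The same held for 494 of all genes tested (3.14%). The sex term of the fit, examined after the diet results, was called for Fam107a (0.45 log2 higher in the female libraries, edgeR adjusted p = 0.02), Fbln5 (0.53, 0.0274) and Glul (0.34, 0.0330), and not for Sult1a1 (0.69, 0.163). It was called for 23 of all genes (0.146%). Without that term no gene was called for diet, and Glul stayed at 0.42 log2 (edgeR adjusted p = 0.681). In males alone the rises of Glul and Sult1a1 were 0.40 and 1.25 log2 and none was called.

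The number of calls moved with single libraries more than the sizes did. No gene was called without control CT08 3, control CT08 a, control CT12 2, control CT12 3, MCD CT08 1, MCD CT08 2 or MCD CT12 2. The count was 3 without control CT08 b, control CT12 1 or MCD CT12 3, 6 without MCD CT08 3 and 7 without MCD CT12 1. Over the 24 alternatives tried, Glul ran from 0.39 to 0.44 log2, Sult1a1 from 0.91 to 1.25, Fbln5 from 0.51 to 0.64 and Fam107a from 0.40 to 0.51. DESeq2 called 30 genes, 20 higher and 10 lower, with these 4 among them.

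The genes next in order of p did not pass the edgeR test; Fam107a was the last inside the threshold and Fabp7, Prex2 and Glns-ps1 (adjusted p = 0.121) were the first outside. Fabp7, a fatty-acid-binding protein of astrocytes, had the lowest p of these: 56.4 ± 28.7 CPM on control and 34.3 ± 21.9 CPM on MCD (-0.85 ± 0.14 log2, edgeR adjusted p = 0.121), with all 3 MCD libraries below all 3 controls at each time. Such separation at both times occurred for 39 genes downward (0.248%) and 61 upward (0.387%), and over all 12 libraries for 12 downward (0.0762%) and 13 upward (0.0825%). Prex2, an exchange factor for Rac, was separated upward (44.4 ± 10.5 and 66.5 ± 21.1 CPM, 0.55 log2, adjusted p = 0.121). The non-coding 2900052N01Rik stood at 35.7 ± 9.80 and 68.8 ± 27.6 CPM (0.93 log2, adjusted p = 0.143). The neuropeptide gene Cck stood at 83.8 ± 19.3 CPM on control and 59.3 ± 10.8 CPM on MCD (-0.49 log2, adjusted p = 0.214), and Ache, which encodes acetylcholinesterase, at 115 ± 10.6 and 90.9 ± 13.4 CPM (-0.34, 0.215). Both were lower in all MCD libraries of each time. Mfsd2a, the endothelial carrier of lysophosphatidylcholine, was 0.48 log2 higher (adjusted p = 0.215), with 13.3 ± 1.22 against 21.7 ± 2.69 CPM at CT08 (SD), where the diets were apart, and 23.0 ± 3.12 against 27.5 ± 3.18 CPM at CT12, where they overlapped (0.71 and 0.26 log2). Slc7a10, an astrocyte transporter of small neutral amino acids, was at -0.43 log2 (adjusted p = 0.265) and Irf7, an interferon-response factor, at 1.05 log2 (adjusted p = 0.265, below 5 CPM in every library). DESeq2 called all of these.

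Of 20 tested genes known to respond to glucocorticoids or fasting, 16 had a higher value on MCD, 8 of them with an unadjusted p under 0.05 and none lower at that level. Over all genes 49.1% had a higher value, and 3.1% were higher and 2.53% lower at that p. EdgeR called Sult1a1 alone. The list was chosen with earlier results of these data known, so its counts are no independent test. The median of the list was 0.25 log2, beside -0.002 over all genes, and it was 0.41 at CT08 and 0.19 at CT12. Sgk1, a kinase induced by glucocorticoids, was at 11.3, 11.5 and 8.71 CPM in the CT08 controls and at 17.4, 21.0 and 20.1 CPM on MCD. At CT12 it was at 23.9, 22.9 and 18.3 CPM on control against 23.9, 26.1 and 32.5 CPM on MCD (pooled 0.61 ± 0.13 log2, edgeR adjusted p = 0.260). The diets were apart for Sgk1 at CT08 and overlapped at CT12. Plin4, a lipid-droplet protein (0.90 log2), Hif3a, a hypoxia-inducible factor (0.81), Cdkn1a, a cell-cycle inhibitor (0.55), Txnip, which binds thioredoxin (0.54), Tsc22d3, a leucine-zipper protein (0.38), and Klf15, a transcription factor of fasting metabolism (0.28), made up the rest of the 8. Fkbp5, a chaperone of the glucocorticoid receptor, was at 0.18 log2 (edgeR adjusted p = 0.870), and Mt1 and Mt2, metallothioneins, at 0.18 and -0.03. Of the 20 genes 7 were also called between the times, all higher at CT12, Sgk1, Plin4, Hif3a and Cdkn1a among them, beside 1.15% of all genes called higher at CT12. DESeq2 called Sgk1 and Plin4 for diet besides Sult1a1.

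**Figure D2:**
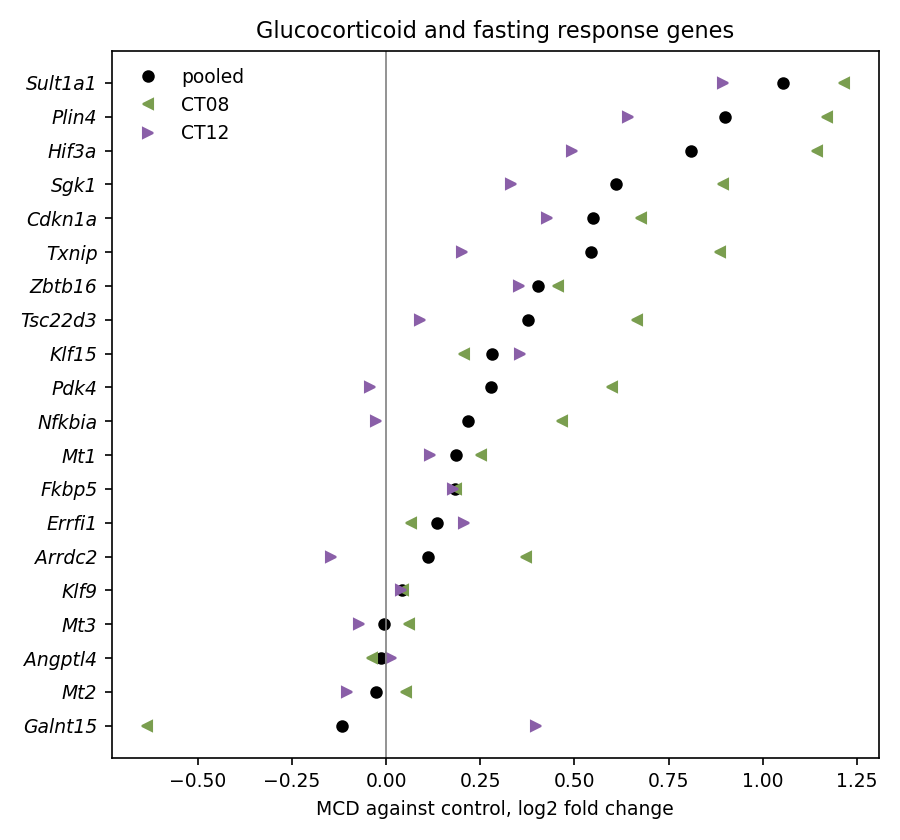
Log2 fold change of MCD against control for the 20 tested glucocorticoid and fasting response genes, pooled (circles) and at CT08 and CT12 (triangles). Sult1a1 (1.05) heads the list, 16 of 20 pooled values lie above 0, and 18 lie above 0 at CT08.

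EdgeR called no gene of methionine or choline metabolism for diet, while DESeq2 called 1, Ache (DESeq2 adjusted p = 0.00942). Of 18 tested genes of the methionine cycle and methyl transfer, 9 were higher and 9 lower (median 0.01 log2, which falls just below 0 with upper-quartile factors). Mat2a had a mean of 143 ± 8.69 CPM on control and 147 ± 47.4 CPM on MCD (-0.01 ± 0.17 log2, 95% interval -0.39 to 0.37). Mat2b, the regulatory partner of its product, was at 66.7 ± 4.19 and 65.4 ± 1.73 CPM. Mettl16, the RNA methyltransferase that acts on the Mat2a transcript, was at 64.1 ± 6.88 and 70.1 ± 7.52 CPM (0.13 log2, edgeR adjusted p = 0.870). Gamt, which uses the methyl donor to make creatine, was the gene of this list with the smallest p (-0.46 log2, edgeR adjusted p = 0.849). Of the 17 genes of methionine salvage and polyamines, Odc1, the first enzyme of polyamine synthesis, stood at 202 ± 48.2 and 173 ± 52.4 CPM (-0.25 log2, edgeR adjusted p = 0.437), and Azin1, which frees ODC from its inhibitor, at 0.20 log2 (adjusted p = 0.663). The list of 22 choline and phosphatidylcholine genes, which includes Ache, had 11 higher and 11 lower. The amino acid stress response list had 9 of 29 higher (median -0.03), with Gpt2, an alanine aminotransferase, at 0.31 log2 (adjusted p = 0.462) and Ppp1r15a, a stress-induced phosphatase subunit, at -0.25 (0.792).

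Time separated the same libraries much more than diet. Between CT08 and CT12, on both diets together, edgeR called 381 genes (2.42%), 181 higher (1.15%) and 200 lower (1.27%) at CT12. The count was 250, 245, 231 and 229 without MCD CT08 1, MCD CT08 2, control CT12 1 and MCD CT12 2. Prok2, a secreted output signal of the SCN, fell by 3.02 log2 (adjusted p = 4.96e-06) and Rasl11b, a Ras-like protein, fell by 2.70 (1.23e-07). Npas4, an activity-induced transcription factor, rose by 3.67 log2 (adjusted p = 0.0162). Npas4 was at 0.621 to 2.59 CPM in the CT08 libraries, and at CT12 it was at 5.56, 3.95 and 36.8 CPM on control against 45.9, 29.6 and 36.2 CPM on MCD. For diet it was not called (1.23 log2, adjusted p = 0.870), and at CT12 the control female lay among the MCD libraries.

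EdgeR called no core clock gene for diet (DESeq2 called Nr1d1 and Dbp): 12 of 24 were higher and 12 lower, with a median of 0.01 log2. Nr1d1, the repressor REV-ERB alpha, lay at 193, 232 and 208 CPM in the CT08 controls and at 179, 151 and 168 CPM on MCD. At CT12 it lay at 83.9, 94.5 and 75.0 CPM on control against 77.0, 71.8 and 65.8 CPM on MCD. The diets were apart at CT08 and overlapped at CT12 (pooled -0.29 ± 0.06 log2, edgeR adjusted p = 0.265; time -1.27, adjusted p = 1.58e-08). Thra overlaps Nr1d1 on the other strand. Dbp, a PAR bZIP output factor, stood at 244 ± 96.0 and 194 ± 99.4 CPM (diet -0.40 ± 0.10, adjusted p = 0.462; time -1.24). Clock was at 0.17 log2 (edgeR adjusted p = 0.870). Per1 was at -0.16, Per2 at 0.04, Cry1 at 0.05 and Arntl at 0.10, and the 95% interval of each spanned 0. Per1 and Arntl moved with time, by -1.16 and 0.70 log2.

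**Figure D3:**
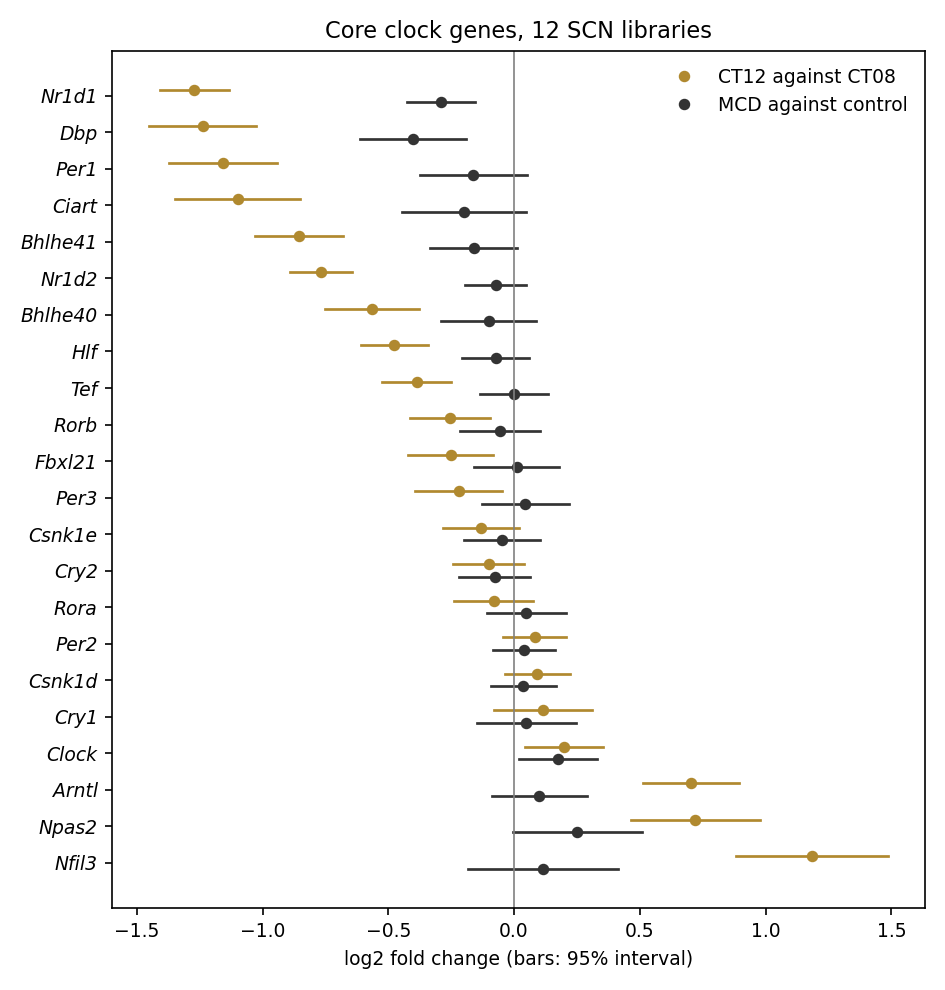
Log2 fold changes with 95% intervals for 22 core clock genes, CT12 against CT08 (ochre) and MCD against control (black). Time effects reach -1.27 for Nr1d1, while the diet effects shown lie between -0.40 (Dbp) and 0.25 (Npas2).

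Of 20 SCN peptide and receptor genes 11 were higher and 9 lower (median 0.02 log2). EdgeR called none of them, and DESeq2 called Cck (DESeq2 adjusted p = 0.00189). Vip differed by 0.16 log2 (edgeR adjusted p = 0.905) and Avp by -0.25 (0.886), with Avp at 613 to 825 CPM on control and 349 to 535 CPM on MCD at CT12, and overlapping at CT08. Grpr, the receptor of gastrin-releasing peptide, was at 0.49 log2 (adjusted p = 0.750).

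Taken alone, CT08 gave no edgeR call (620 genes at unadjusted p under 0.05, 3.94%; 13 calls by DESeq2), and CT12 gave 2 (0.0127%; 17 by DESeq2). Fabp7 fell at CT12 by 1.14 log2 (adjusted p = 0.0255), from 30.6, 37.6 and 27.8 CPM to 11.9, 18.3 and 13.2 CPM. 9330159F19Rik, a protein-coding gene without an established role, rose by 0.74 log2 (adjusted p = 0.0182), from 48.6, 42.8 and 40.1 CPM to 80.4, 74.0 and 65.1 CPM. At CT08 it lay at 57.5 to 64.5 CPM on control and 58.1 to 63.3 CPM on MCD. Neither of these 2 calls remained without MCD CT08 1, control CT12 2 or control CT12 3, and 1 of the 2 was lost without control CT08 a, control CT12 1, MCD CT12 2 or MCD CT12 3. Without MCD CT12 1 the count was 4, both included.

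For a difference of the diet effect between the 2 times, edgeR called none of 15756 genes, with 663 (4.21%) at an unadjusted p under 0.05, while DESeq2 called 9. The smallest p belonged to 9330159F19Rik (edgeR adjusted p = 0.473) and to Bdh2, a short-chain dehydrogenase. Bdh2 was at 6.89, 6.68 and 8.18 CPM on control against 11.0, 11.0 and 13 CPM on MCD at CT08. At CT12 it was at 8.99, 8.55 and 10.1 CPM on control against 6.10, 5.86 and 7.17 CPM on MCD, so the order of the diets was opposite at the 2 times (adjusted p = 0.473). Mat2a lay at 139, 149 and 158 CPM on control against 99.1, 127 and 110 CPM on MCD at CT08, apart at that time. At CT12 it lay at 136, 143 and 134 CPM and at 198, 133 and 213 CPM, where 1 MCD library was below all 3 controls. Its effects were -0.41 and 0.39 log2, and their difference of 0.80 ± 0.21 log2 had an unadjusted edgeR p of 0.00218 (adjusted p = 0.942). The 85 tested cytosolic ribosomal protein genes were higher on MCD for 84 members at CT08 (median 0.10 log2) and for 1 at CT12 (median -0.14; 0 members with upper-quartile factors or library totals), with no member called.

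**Figure D4:**
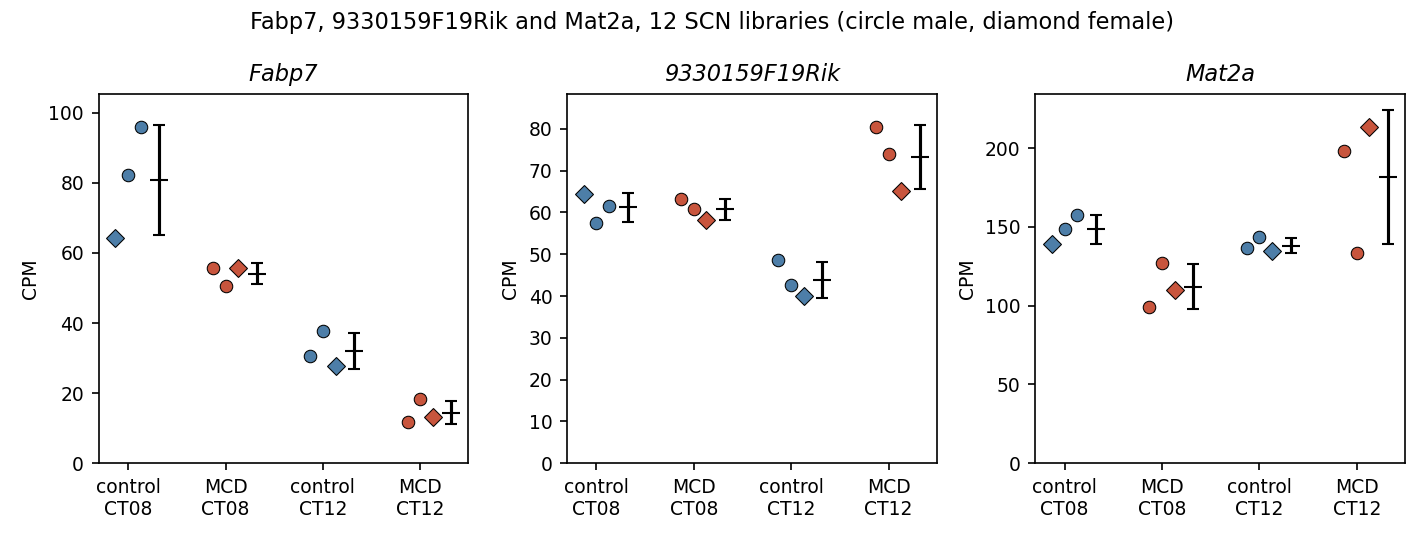
CPM of Fabp7, 9330159F19Rik and Mat2a in each library by diet and time (circles, males; diamonds, females; bars, mean ± SD of 3). Fabp7 is lower on MCD at each time, 9330159F19Rik is apart at CT12 (40.1 to 48.6 and 65.1 to 80.4 CPM) and overlaps at CT08, and Mat2a is lower on MCD at CT08 and higher in 2 of 3 libraries at CT12.

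A model of all 36 SCN libraries set CT08 and CT12 against CT00, CT04, CT16 and CT20. No gene was called for a different diet effect (369 at an unadjusted p under 0.05, 2.34%; 5 by DESeq2). In that model the pooled diet effect at CT08 and CT12 also had no call. Glul was at 0.47 log2 at CT04, 0.41 at CT08 and 0.43 at CT12, and at -0.04, 0.10 and 0.15 at CT00, CT16 and CT20; the contrast of 0.25 ± 0.10 log2 had an unadjusted edgeR p of 0.0163 (adjusted p = 1). Sult1a1 was above 0 at all 6 times, from 0.26 at CT00 to 1.24 at CT04, as was Fbln5, from 0.31 at CT00 to 0.67 at CT12. Fabp7 was at -0.16 log2 at CT00, -0.56 at CT04, 0.39 at CT16 and 0.27 at CT20, which average to -0.02 (contrast -0.85 ± 0.19, unadjusted p = 0.000121, adjusted p = 0.946). Mat2a went from -0.46 at CT04 and -0.41 at CT08 through 0.40 at CT12 to 1.16 at CT16 and 1.1 at CT20, where it was called (edgeR adjusted p = 5.05e-05 and 0.000167; 1 gene, 0.00635%, was called at each). Its contrast was -0.47 ± 0.12 log2 (unadjusted p = 0.000476, adjusted p = 1). Over the other 4 times 5 genes were called (0.0317%), with Mat2a and 2900052N01Rik (0.81 log2) among them, and none of Glul, Sult1a1, Fbln5 or Fam107a.

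**Figure D5:**
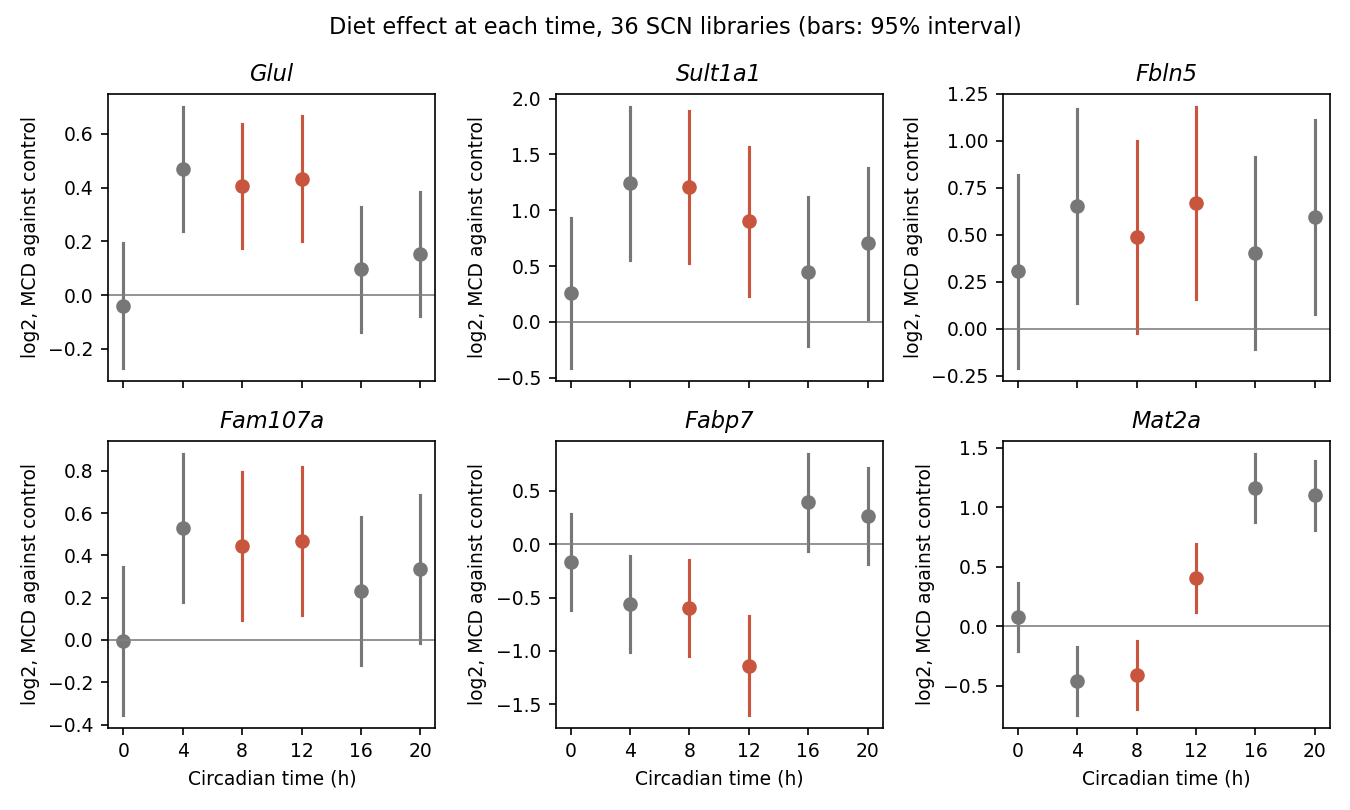
Diet effect (log2, MCD against control, with 95% interval) at each of 6 circadian times in the model of 36 SCN libraries; CT08 and CT12 are in red. Sult1a1 and Fbln5 lie above 0 at all times, Fabp7 is lowest at CT12 (-1.14), and Mat2a goes from -0.46 at CT04 to 1.16 at CT16.

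Marker genes of the cell types in the cut tissue were summed per library and compared by exact permutation of diet within time, two-sided (400 permutations, smallest possible p = 0.005). None of 11 sums reached p under 0.05 in this test, which does not hold sex fixed. Permuting within time and sex (144 permutations, smallest possible p = 0.0139), an alternative chosen after seeing the data, put 1 of the 11 under 0.05, the astrocyte sum. Fewer cells of a type and less RNA per cell cannot be told apart in such tissue. Astrocyte markers, which include Glul itself, summed to 5314 CPM on control (4593 to 5901) and 5982 CPM on MCD (5372 to 7415; 0.17 log2, exact p = 0.08; within time and sex, exact p = 0.0278, adjusted over the 11 sums 0.306). With diet permuted within time, the exact p was 0.035 and 0.025 without control CT08 3 and without MCD CT12 1. It was 0.07 to 0.16 without any other single library. The mean z-score of these markers gave an exact permutation p of 0.52. Of its 15 members Glul alone was called; Aldh1l1 (0.16 log2) and Aldoc (0.15) were higher and Aqp4, the water channel (-0.19), lower at an unadjusted p under 0.05. Glul, at a mean of 1363 CPM over the 12 libraries, is part of the astrocyte sum, and the sum without it was not tested. The part of astrocyte content in the rise of Glul was not tested.

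The 5 tested erythrocyte genes were 4 globins and the haem-synthesis gene Alas2. All 5 had a lower value on MCD at an unadjusted edgeR p under 0.05, beside 2.53% of all genes. None of the 5 was called (median -1.03 log2). Their sum was 402, 75.9 and 206 CPM in the CT08 controls and 283, 151 and 135 CPM in the CT12 controls. On MCD it was 102, 76.9 and 88.9 CPM and 56.7, 139 and 140 CPM. Control CT08 a and control CT12 3 lay within the MCD range (-0.93 log2, exact permutation p = 0.09). The exact permutation p was 0.015 without control CT08 a and 0.09 to 0.17 without any other single library. Permuting within time and sex gave an exact p of 0.111. The mean z-score of the same genes gave an exact permutation p of 0.035. Globin copies share reads, and Slc4a1 is not in the table. Whether blood content bears on any gene called for diet was not tested.

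Oligodendrocyte genes were lower for 13 of 17 (median -0.15 log2), with Olig1 (-0.18), Cnp (-0.19) and Sox10 (-0.21) at an unadjusted p under 0.05, while their sum ran from 1657 to 2760 CPM on control and 1412 to 2754 CPM on MCD (exact p = 0.58). Microglial genes were lower for 11 of 13, led by Fcrls (-0.43, edgeR adjusted p = 0.663). Of 93 nuclear genes of the respiratory chain, 85 were lower (median -0.07), 51 at CT08 and 93 at CT12; 5 had an unadjusted p under 0.05, all lower, beside 2.53% of all genes lower at that p, and none was called. The CT08 split turned to 51 higher with library totals alone. Of 19 markers of hypothalamus outside the SCN, 13 were tested and showed no called change. Those present included Oxt (mean 84.2 CPM over the 12 libraries), Trh (39.4), Hdc (29.0) and Otp (9.55). The ependymal markers Foxj1 (47.8 CPM) and Ccdc153 (48.1 CPM) were also present. Pmch, Hcrt, Agrp and Crh, like the choroid plexus marker Ttr, are not in the table. Foxb1, at a mean of 1.99 CPM, had the lowest value of the 13 (-0.67 log2). It was lower in every MCD library than in every control.

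Heat shock, cold-inducible, m6A, DNA and histone methylation, lipid synthesis, receptor and channel genes had no call. Of the 6 cold-inducible RNA-binding genes (-0.22 to 0.36 log2), 1 was higher and 3 lower at an unadjusted edgeR p under 0.05. Over all genes 3.1% were higher and 2.53% lower at that p. Dnajb1, a chaperone, stood at 0.35 log2 (edgeR adjusted p = 0.462), higher in 6 of 6 MCD libraries than the control mean of the time. Srsf5, a splicing factor, was at -0.22 (0.462) and Ythdc2, a reader of m6A, at 0.26 (0.792). Of 33 DNA and histone methylation genes 26 had a higher value (median 0.09), 18 at CT08 (median 0.0006, just below 0 with upper-quartile factors) and 28 at CT12 (0.11), with Dot1l, a histone H3 methyltransferase, at 0.26 log2 (0.835). Nsdhl, of cholesterol synthesis, was at -0.26 log2 (0.660).

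Exon usage was tested from the exon-bin counts of the same 12 libraries, 214553 bins in 14048 genes. The diffSpliceDGE test of edgeR called 2 genes (0.0142%) by Simes p. Ppia, which encodes cyclophilin A, had 1 bin (number 14) that took 1.18% ± 0.364 of its counts on control and 5.19% ± 3.78 on MCD (SD, n = 6 each; edgeR adjusted p = 6.07e-09). The control shares lay at 0.615% to 1.74%. The MCD shares were 5.72%, 1.05% and 6.50% at CT08 and 1.45%, 11.4% and 5.06% at CT12, so 2 MCD libraries lay within the control range. Rpl27a, a ribosomal protein gene, had a bin (number 5) with 0%, 0% and 1.93% at CT08 and 0.0274%, 0% and 2.19% at CT12 on control. On MCD the shares were 2.85%, 0.0212% and 2.74% and 3.31%, 3.12% and 1.68% (edgeR adjusted p = 4.90e-05). Its values fell near 0 or above 1.6%, with libraries of both diets at each level. Both genes have many near-identical processed copies, which makes single bins uncertain. Araf, a kinase, missed the threshold (adjusted p = 0.0728); its bin 8 held 0.163% and 0.120% of the counts in control CT12 1 and 2 and 1.59% to 2.06% in the other 10 libraries. Mat2a was not called for exon usage (edgeR adjusted p = 1). The count of called genes was 4, 5, 4, 4, 6 and 5 without control CT08 1, control CT08 2, MCD CT08 2, MCD CT08 3, control CT12 2 and MCD CT12 2, with Ppia and Rpl27a called each time. Rpl27a was not called with at least 30 counts per bin (edgeR adjusted p = 0.0777) or without the sex term (edgeR adjusted p = 1), and Ppia was called in both.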

How the data were processed

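Gene counts of 12 SCN libraries were analysed; the members and gene lists were chosen with earlier results of these data known. Per the file headers, the deposited values are raw read counts, whole numbers for each gene and each exon bin. The submitters' processing notes name Trimmomatic, HISAT2, StringTie, DESeq2 and GRCm39; which annotation and strand setting the counting used was not given in the sources used here; overlapping genes and close copies are uncertain. Counts were fitted with edgeR 4.0.16 (R 4.3.3; TMM, minimum count 10, robust quasi-likelihood F test, Benjamini-Hochberg 0.05) on diet, time and sex, which left 8 residual degrees of freedom and a biological coefficient of variation of 0.19. The effects at each time used group means; other times used 36 libraries. At 46.4 M to 79.8 M counts per library, the spread between 3 mice per group limits precision. As a check for libraries deposited more than once, replicates of a group were compared against counting noise, and no pair agreed within it (chi-square per degree of freedom at least 24.8). DESeq2 1.42.0 and limma 3.58.1 were alternatives. The fits were also run on counts simulated with less spread than these data (biological coefficient of variation 0.19 for genes and 0.393 for exon bins). That run therefore does not measure their accuracy here. Named genes were the called ones, others by smallest p up to 20 in all, up to 4 per list by p, Mat2a, Mat2b, Mettl16, all clock and neuropeptide genes, up to 6 called (or 4 of smallest p) per time test and up to 6 for exon usage. Glucocorticoid-list and marker genes beyond 4 per list were named after their values were seen. Some genes of the core clock list are counted in it and not reported singly here.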

Additional observations from a re-analysis of the deposited data

Results flagged for a closer look

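In 70 groups of 6 libraries (1 diet, both times), the gap of the highest or lowest library to its neighbour was compared with Dixon's 95% critical value of 0.625; chance flags about 1 in 20. On MCD, Fam107a was highest in MCD CT12 3 at 527 CPM (next, 375 CPM), 2900052N01Rik in the same library at 121 CPM (next, 68.8 CPM) and Farp1 also there at 63.8 CPM (next, 50.5 CPM). On control, Irf7 stood apart at 2.89 CPM and Sln, a calcium-pump regulator, at 0.625 CPM, both in control CT08 3, and Sln had 0 CPM in the other 5 controls. Times were mixed within these groups.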

How the results depend on the processing

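Directions of Glul, Sult1a1, Fbln5 and Fam107a held in all 24 alternatives; they stayed called in 13, 12, 11 and 9 of them. Of 169 other named genes, 28 changed sign in at least 1 alternative, none with p under 0.05. The pooled diet count of 4 became 30 with DESeq2 and 0 without the sex term, with all 36 libraries in 1 fit and in males alone. Leaving out 1 library gave 0 to 7 pooled calls, 0 to 1 at CT08, 0 to 4 at CT12, 0 to 2 for the diet-by-time difference, 229 to 446 for time, 2 to 6 for exon usage and 0 to 1 marker sum. DESeq2 called 680 genes for time, 13 at CT08, 17 at CT12, 9 for the diet-by-time difference and 5 against the other times. At CT12 the count of 2 became 1 without the sex term, 0 with 36 libraries and 0 with counts summed from exon bins. It became 1 in males alone, a gene other than Fabp7 and 9330159F19Rik. At CT08, exon-bin sums called 1. The time count was 218 with 36 libraries and 147 in males alone, which also called 1 gene for the diet-by-time difference. Exon usage called 1 gene with at least 30 counts per bin and 1 without the sex term, Ppia each time. The mean z-score called 1 marker list, erythrocyte, and permutation within time and sex, chosen after seeing the data, called 1, astrocyte. Fits on males alone or without a library hold fewer samples; other causes were not tested.

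With the replicate number as a block in place of sex, 10 numbered libraries called 0 genes for pooled diet, 3 at CT08, 2 at CT12, 2 for the diet-by-time difference and 176 for time. That fit holds 1 control library at CT08, assumed to vary like the other groups, so its CT08 and diet-by-time calls rest on 1 sample. With the block, 34 numbered libraries called 1 against the other times. With the block on exon-bin sums of all 12 libraries, the counts in the same order were 6, 1, 1, 0 and 358, and exon usage called 2. These samples share only a number: deviations of same-numbered libraries from their group means correlated across genes at r = 0.05 (number 3, CT08) and at 0.21, -0.02 and 0.16 (numbers 1, 2 and 3, CT12).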
